A study of Mus musculus with 12 samples.

Results

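The 7 genes described here encode cyclic nucleotide phosphodiesterases: Pde1c, Pde3b, Pde4a, Pde4b, Pde4d, Pde7a and Pde8a. They were selected on their deposited log2 CPM (a gene's reads relative to library size, on a log2 scale) across the 4 groups of these same 12 libraries, by gene symbol, and make up 7 of the 13553 genes in the expression table. Because the measured values that chose them are the values given below, differences of the 7 genes are a description; "past the threshold" says only where a gene fell in a fit over 12116 genes (adjusted p under 0.05). The cells were bone marrow derived macrophages of male wild-type C57BL/6 mice, grown with 10 ng/mL of the growth factor M-CSF, and all groups share that genotype, sex and culture. The 4 groups of 3 libraries were IL4 RA (20 ng/mL IL4 for 24 h, then 1 µM all-trans retinoic acid, RA, for 6 h), IL4 vehicle (the same IL4, then DMSO for 6 h), naive RA (no IL4, then RA) and naive vehicle (no IL4, then DMSO). The study thus asked what RA does to IL4-stimulated and to naive macrophages. The labels do not say whether replicates 2, 3 and 4 came from separate animals or cultures, so any p covers the variation among these libraries and may reflect technical error alone. No animal age is given in them.

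Cyclic AMP and cyclic GMP are second messengers made by cyclases, many of them under G protein-coupled receptors, and read by protein kinase A, protein kinase G and the exchange factors called Epac. Phosphodiesterases end the signal by hydrolysing the cyclic nucleotide, and families differ in substrate and control. PDE1 enzymes are switched on by calcium and calmodulin and cleave both nucleotides, PDE3 enzymes cleave cAMP and are held back by cGMP, and PDE4, PDE7 and PDE8 enzymes are specific for cAMP. In macrophages raised cAMP is known to dampen the release of inflammatory cytokines, and inhibitors of PDE4 are used as anti-inflammatory drugs. IL4 acts through the transcription factor STAT6, and RA acts through nuclear receptors that bind DNA as dimers.

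Depth, estimated from the smallest steps between low values, was 30.77 to 48.49 M reads per library, and the IL4 RA libraries were the shallowest (30.77 to 32.32 M). All 8 macrophage marker genes were in the table, with a summed level of 22230 to 23630 CPM in IL4 RA, 20980 to 23280 CPM in IL4 vehicle, 36500 to 40870 CPM in naive RA and 37300 to 39350 CPM in naive vehicle, led by the lysozyme gene Lyz2. None of these genes had a library at the table's lowest value. They did not all move with the sum: IL4 lowered 6 and raised 0 of the 8 in vehicle. Under RA it lowered 6 and raised 1, Itgam, by 0.21 (adjusted p = 0.00357). Of all tested genes 30.5% were higher and 29.6% lower in vehicle, and 29.0% and 26.7% under RA. Of the 6 dendritic cell markers, 4 were in the table, with sums of 73.1 to 106.4 CPM in IL4 RA, 73.1 to 99.5 CPM in IL4 vehicle, 5.13 to 8.82 CPM in naive RA and 5.00 to 8.09 CPM in naive vehicle, led by the chemokine receptor gene Ccr7. Ccr7 alone averaged 83.4, 76.9, 5.48 and 4.84 CPM in the same order of groups, so this sum mostly follows 1 gene. The 2 measured markers of 7 for eosinophils, mast cells and basophils, led by Siglecf, summed to 86.2 to 104.5, 68.8 to 86.0, 9.28 to 10.8 and 8.62 to 9.83 CPM in the same order of groups. Siglecf alone averaged 78.3, 66.0, 2.00 and 1.52 CPM, most of the sum in IL4 cells only. The 3 measured megakaryocyte markers of 4, led by the platelet factor gene Pf4, had a higher sum with RA. It was 41.8 to 58.2 CPM in IL4 RA against 20.9 to 33.6 CPM in IL4 vehicle. In naive RA it was 45.5 to 64.3 CPM against 26.2 to 33.1 CPM in naive vehicle. Pf4 alone made up most of each sum (means 48.2, 24.7, 52.6 and 28.1 CPM in the same order). Besides Pf4 only Ppbp was tested, and its RA difference was called in naive cells only. Ppbp averaged 1.29, 0.685, 1.79 and 0.789 CPM in the same order and reached 1 CPM in every RA library but in no IL4 vehicle library. It thus passed the filter only through the RA groups where it was high, and that call is a description. The 7 stromal and endothelial markers, all in the table and led by Kdr, had a lower sum with IL4. It was 33.5 to 49.9 CPM in IL4 RA and 44.9 to 51.8 CPM in IL4 vehicle. In naive RA it was 64.3 to 65.7 CPM, and in naive vehicle 62.8 to 73.3 CPM. Kdr itself averaged 21.7, 30.9, 22.5 and 27.7 CPM in the same order of groups, so it did not follow the sum in vehicle. The 2 measured neutrophil markers of 6 (Camp and S100a8) summed to 3.48 to 4.34, 3.60 to 4.27, 2.14 to 2.57 and 2.14 to 2.34 CPM in the same order, and the 2 measured T and NK cell markers of 6 (Lck and Cd247) to 1.86 to 2.24, 1.83 to 2.42, 1.24 to 1.45 and 1.04 to 1.23 CPM. The part of these markers in the phosphodiesterase results was not tested. In RNA from whole cultures, fewer cells of a type and less RNA per cell cannot be told apart.

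**Figure D1:**
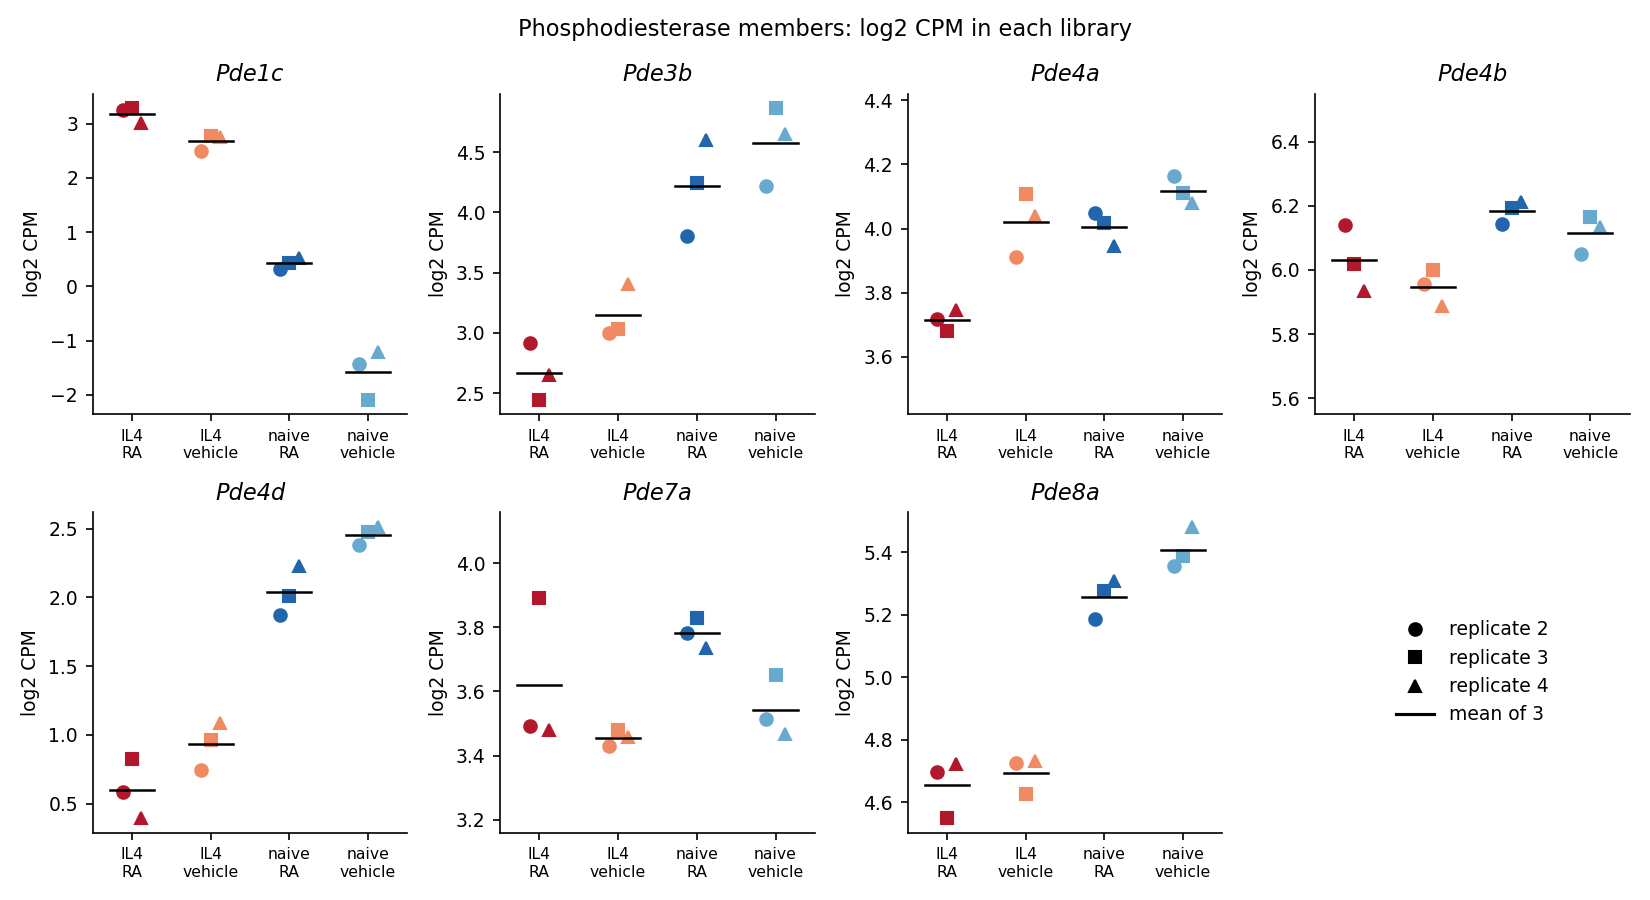
Level of each of the 7 phosphodiesterase genes in every library (vertical axis, log2 CPM, each panel with its own range) in the IL4 RA, IL4 vehicle, naive RA and naive vehicle groups; marker shapes give the replicate number and bars the mean of 3. Pde1c is highest in IL4 RA (mean 3.18) and lowest in naive vehicle (mean -1.57), Pde3b, Pde4d and Pde8a are lower in every IL4 library than in every naive one, and Pde4b spans only 5.89 to 6.21.

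Pde1c, a calcium- and calmodulin-activated phosphodiesterase (Entrez 18575, chromosome 6, 56069798 to 56652510, minus strand, RefSeq GRCm38.p6), was higher with IL4 and, in naive cells, higher with RA. It measured 3.26, 3.29 and 3.01 log2 CPM in IL4 RA, 2.49, 2.77 and 2.76 in IL4 vehicle, 0.33, 0.43 and 0.53 in naive RA, and -1.42, -2.09 and -1.21 in naive vehicle. The 4 groups did not overlap, and they ordered as IL4 RA, IL4 vehicle, naive RA and naive vehicle. The IL4 difference was 4.25 on the log2 scale in vehicle (SE 0.19, 95% interval 3.83 to 4.67), a 19.0-fold higher level, and 2.76 under RA (SE 0.19, 2.34 to 3.18), a 6.76-fold higher level. The RA difference was 2.00 in naive cells (SE 0.19, 1.58 to 2.42), a 4.00-fold higher level, and ranked 14 by size among the 12116 genes. All of these were past the threshold. In IL4 cells the RA difference was 0.51 (SE 0.19, 0.09 to 0.93), which was not past it although the groups did not overlap. Pde1c in IL4 cells came past it in a fit on IL4 cells alone, and without the library naive vehicle replicate 3.

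How far RA moved Pde1c depended on the scale. On the log2 scale the interaction of IL4 and RA (the RA difference in IL4 cells less the one in naive cells) was -1.49 (SE 0.28, 95% interval -2.09 to -0.90), past the threshold in the fit on all 12 libraries. On the linear scale the difference of means was larger in IL4 cells, 2.71 CPM, than in naive cells, 1.00 CPM. The naive vehicle values were only 0.373, 0.235 and 0.434 CPM, an estimated 13.7, 6.2 and 15.2 reads, against an estimated 42.5 to 51.7 reads in naive RA and 200.1 to 324.3 reads in IL4 vehicle. The table's lowest value, which stands for a count of 0, adds a small amount to every gene. With it subtracted, the RA ratio was 4.72 in naive cells and 1.43 in IL4 cells, and the IL4 ratio was 7.13 under RA and 23.5 in vehicle. The log2 interaction of Pde1c kept its sign in 12 of 12 fits that each left out 1 library (-1.67 to -1.23) and was past the threshold in 2 of them, those without naive vehicle replicate 3 or naive vehicle replicate 4. With 1 CPM added before the log, it was -0.35 and not past the threshold, and the RA difference in IL4 cells (0.45) was past it.

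**Figure D2:**
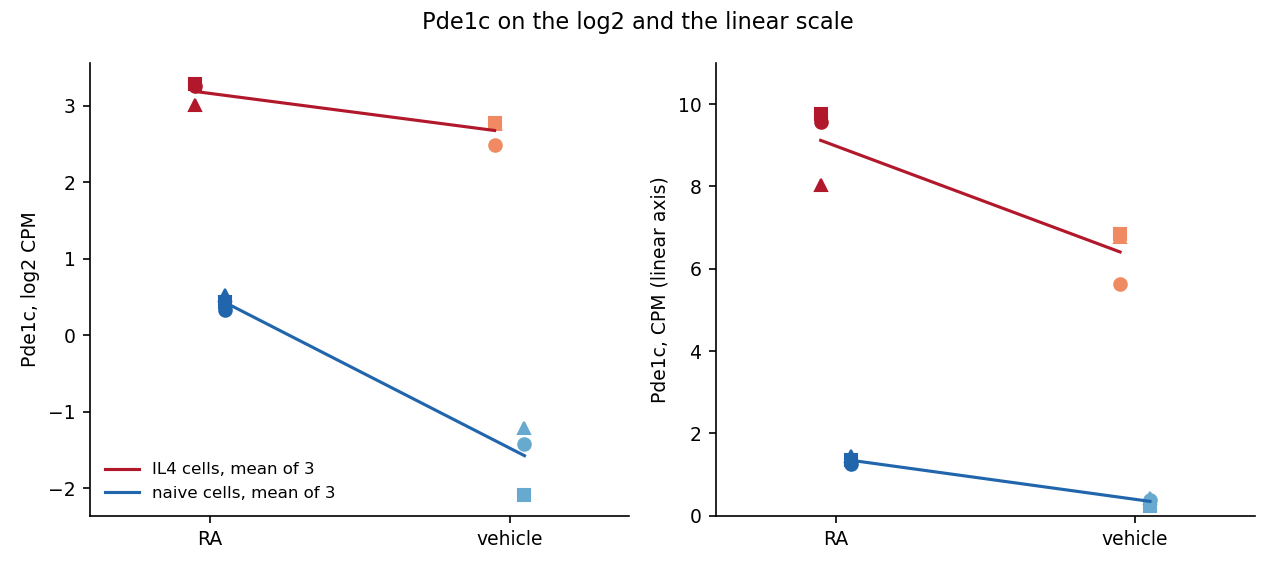
Pde1c in each library with RA and with vehicle (horizontal axis), as log2 CPM (left) and as CPM on a linear axis (right); lines join the means of 3 libraries in IL4 cells (red) and naive cells (blue), and marker shapes give replicates 2, 3 and 4. The naive line is the steeper one in log2 CPM (2.00 against 0.51) and the IL4 line is the steeper one in CPM (2.71 against 1.00).

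Pde3b, a cGMP-inhibited phosphodiesterase best known for ending the cAMP signal downstream of insulin in fat cells (Entrez 18576, chromosome 7, 114415222 to 114537938, plus strand), was lower with IL4. It measured 2.91, 2.44 and 2.65 log2 CPM in IL4 RA, 3.00, 3.03 and 3.40 in IL4 vehicle, 3.81, 4.24 and 4.60 in naive RA, and 4.22, 4.87 and 4.65 in naive vehicle. All IL4 libraries lay below all naive ones. The IL4 difference was -1.55 under RA (SE 0.20) and -1.43 in vehicle (SE 0.20), both past the threshold. The RA differences, -0.47 in IL4 cells (95% interval -0.91 to -0.04) and -0.36 in naive cells (-0.80 to 0.07), were not. In naive cells the RA and vehicle libraries overlapped, and Pde3b had a wider spread between replicates there (SD 0.40 in naive RA and 0.33 in naive vehicle) than the other members except Pde1c in naive vehicle.

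Pde4d, a cAMP-specific enzyme of the rolipram-sensitive family (Entrez 238871, chromosome 13, 108654177 to 109955969, plus strand), also differed mainly with IL4. It measured 0.59, 0.82 and 0.39 log2 CPM in IL4 RA, 0.75, 0.96 and 1.08 in IL4 vehicle, 1.87, 2.01 and 2.23 in naive RA, and 2.38, 2.48 and 2.52 in naive vehicle. Every IL4 library was below every naive one, and naive RA lay below naive vehicle without overlap. The IL4 difference was -1.44 under RA and -1.53 in vehicle (SE 0.14 each), past the threshold both times, which left 0.37 and 0.35 of the naive level. The RA difference was -0.33 in IL4 cells (95% interval -0.64 to -0.03) and -0.42 in naive cells (-0.72 to -0.12), not past the threshold in either. IL4 libraries held an estimated 39.3 to 99.0 reads of Pde4d, so its IL4 values rest on few reads.

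Pde8a, a high-affinity cAMP-specific enzyme that common phosphodiesterase inhibitors barely affect (Entrez 18584, chromosome 7, 81213265 to 81334535, plus strand), was lower with IL4 with little spread. It measured 4.70, 4.55 and 4.72 log2 CPM in IL4 RA, 4.72, 4.63 and 4.73 in IL4 vehicle, 5.19, 5.28 and 5.31 in naive RA, and 5.36, 5.39 and 5.48 in naive vehicle. The IL4 and naive libraries did not overlap. The IL4 difference was -0.60 under RA and -0.71 in vehicle (SE 0.06 each), both past the threshold. The RA difference was -0.04 in IL4 cells (95% interval -0.16 to 0.09) and -0.15 in naive cells (-0.28 to -0.03), not past it, although naive RA lay below naive vehicle in every library.

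Pde4a, a cAMP-specific enzyme of the same family as Pde4d (Entrez 18577, chromosome 9, 21165700 to 21213248, plus strand) measured 3.72, 3.68 and 3.75 log2 CPM in IL4 RA, 3.91, 4.11 and 4.04 in IL4 vehicle, 4.05, 4.02 and 3.95 in naive RA, and 4.16, 4.11 and 4.08 in naive vehicle. The IL4 RA libraries stood below the other 9. It was the 1 member with an RA difference past the threshold in IL4 cells, -0.31 (SE 0.06, 95% interval -0.43 to -0.18), or 0.81 of the vehicle level, and the IL4 difference under RA was -0.29 (SE 0.06), also past it. The RA difference in naive cells, -0.11 (-0.24 to 0.02), and the IL4 difference in vehicle, -0.10 (-0.23 to 0.03), were not past the threshold. The interaction of Pde4a, -0.19 (-0.37 to -0.01), was not past it either.

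Pde4b, the PDE4 gene that inflammatory stimuli are known to raise in macrophages (Entrez 18578, chromosome 4, 102087332 to 102607275, plus strand), measured 6.14, 6.02 and 5.93 log2 CPM in IL4 RA, 5.95, 6.00 and 5.89 in IL4 vehicle, 6.14, 6.19 and 6.21 in naive RA, and 6.05, 6.17 and 6.13 in naive vehicle. The IL4 libraries lay just below their naive counterparts, by 0.15 under RA and 0.17 in vehicle (SE 0.05 each), past the threshold. That call was lost without IL4 RA replicate 3 or 4 or naive RA replicate 3 or 4 under RA, and without IL4 vehicle replicate 4 or naive vehicle replicate 3 in vehicle. The RA differences of 0.08 in IL4 cells (95% interval -0.03 to 0.20) and 0.07 in naive cells (-0.05 to 0.18) were not past it, and RA and vehicle libraries overlapped in both.

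Pde7a, a cAMP-specific enzyme known from T cells (Entrez 18583, chromosome 3, 19223108 to 19311322, minus strand), had no difference past the threshold. It measured 3.49, 3.89 and 3.48 log2 CPM in IL4 RA, 3.43, 3.48 and 3.46 in IL4 vehicle, 3.78, 3.83 and 3.73 in naive RA, and 3.51, 3.65 and 3.47 in naive vehicle. IL4 RA replicate 3 stood above the other two libraries of its group, and naive RA lay above naive vehicle without overlap. The RA difference was 0.17 in IL4 cells (95% interval -0.04 to 0.37) and 0.24 in naive cells (0.03 to 0.45). The IL4 difference was -0.16 under RA (-0.37 to 0.05) and -0.09 in vehicle (-0.30 to 0.12). Without IL4 RA replicate 3, Pde7a passed the threshold for the RA difference in naive cells, still 0.24, and for the IL4 difference under RA, then -0.30.

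**Figure D3:**
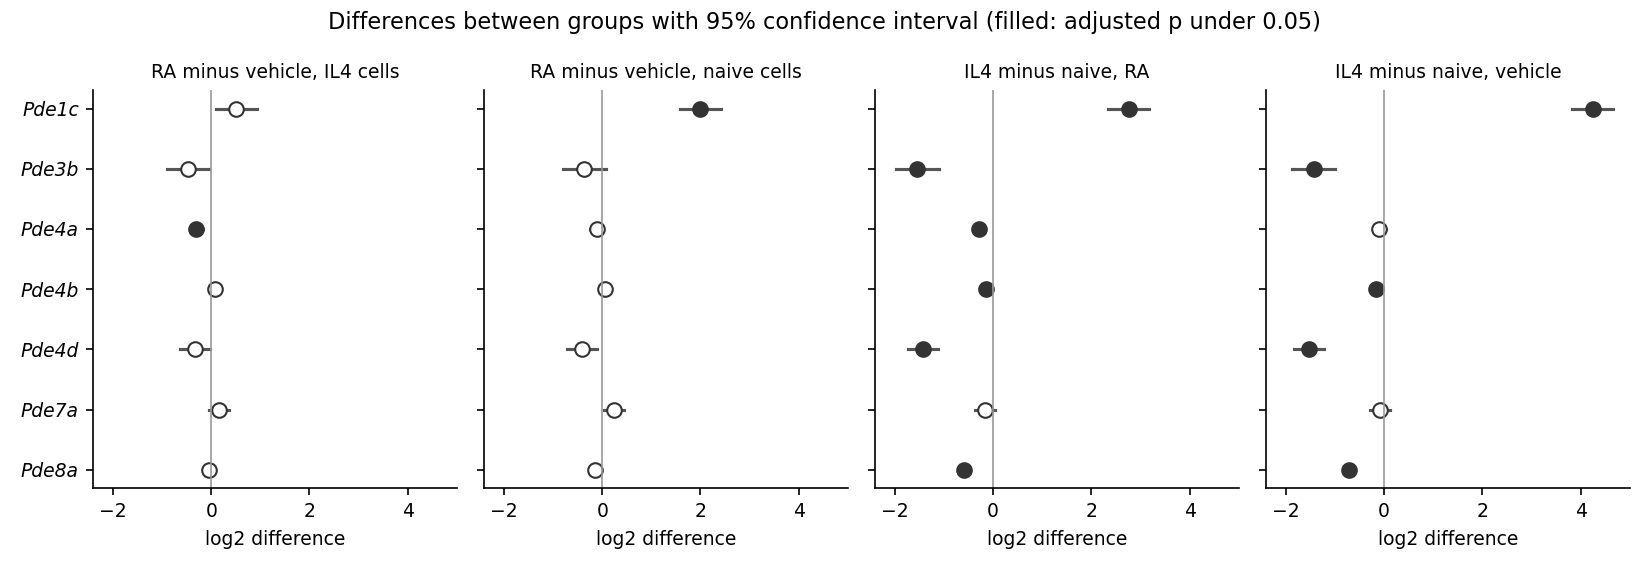
Log2 differences of the 7 genes (rows) for RA minus vehicle in IL4 and in naive cells and for IL4 minus naive under RA and in vehicle (panels), with 95% intervals; filled points were past the threshold in the fit over 12116 genes. IL4 differences run from 4.25 (Pde1c) to -1.55 (Pde3b), and RA differences other than that of Pde1c in naive cells lie between -0.47 and 0.51.

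Across the 7 genes, RA in IL4 cells gave 0 higher and 1 lower (Pde4a) past the threshold, where 6.50% of all tested genes were higher and 5.18% lower. RA in naive cells gave 1 higher (Pde1c) and 0 lower, where 3.24% of all tested genes were higher and 3.03% lower. IL4 under RA gave 1 higher and 5 lower, where 29.0% were higher and 26.7% lower, and IL4 in vehicle gave 1 higher and 4 lower, where 30.5% were higher and 29.6% lower. For the interaction the counts were 0 positive and 1 negative (Pde1c), where 0.338% were positive and 0.0413% negative. The median log2 difference of the 7 was -0.04 for RA in IL4 cells (0.0023 over all tested genes), -0.11 for RA in naive cells (-0.0012), -0.29 for IL4 under RA (-0.0044), -0.17 for IL4 in vehicle (-0.0074) and -0.07 for the interaction (0.0074). The contrasts share samples, and since these values chose the genes, nothing is read from the counts.

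Summed over the 7 genes, the level was 133 ± 5.91 CPM in IL4 RA, 132 ± 2.30 CPM in IL4 vehicle, 165 ± 8.41 CPM in naive RA and 171 ± 9.20 CPM in naive vehicle (SD, n = 3 each). Each IL4 library (127.7 to 139.5 CPM) was below each naive library (156.3 to 178.4 CPM). With the 6 other measured phosphodiesterase genes added, the sums were 249.7 ± 10.5, 247.8 ± 5.24, 320.6 ± 8.38 and 319.5 ± 7.59 CPM in the same order of groups. Per kilobase of the longest annotated transcript (GENCODE vM21), Pde4b held the largest share of the 7 in each group: 52.4% in IL4 RA, 49.6% in IL4 vehicle, 46.1% in naive RA and 42.5% in naive vehicle. Pde8a followed with 22.9%, 23.6%, 27.5% and 29.5%. Pde1c made up 3.58% in IL4 RA, 2.53% in IL4 vehicle, 0.42% in naive RA and 0.105% in naive vehicle, so it was a minor transcript per length even where it was highest. Pde3b made up 3.36%, 4.69%, 7.87% and 9.71% in the same order of groups. The order of the top pair depends on the length used: per kilobase of all annotated exons Pde8a was above Pde4b in every naive and IL4 vehicle library, with 43.8% against 27.4% in naive vehicle. In IL4 RA by that length the means of Pde8a and Pde4b, 36.6% and 36.4%, lay within their SDs (2.27 and 1.58), with Pde4b ahead in 2 of 3 libraries. The values are sums over the isoforms of a gene, and isoforms were not analysed here.

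**Figure D4:**
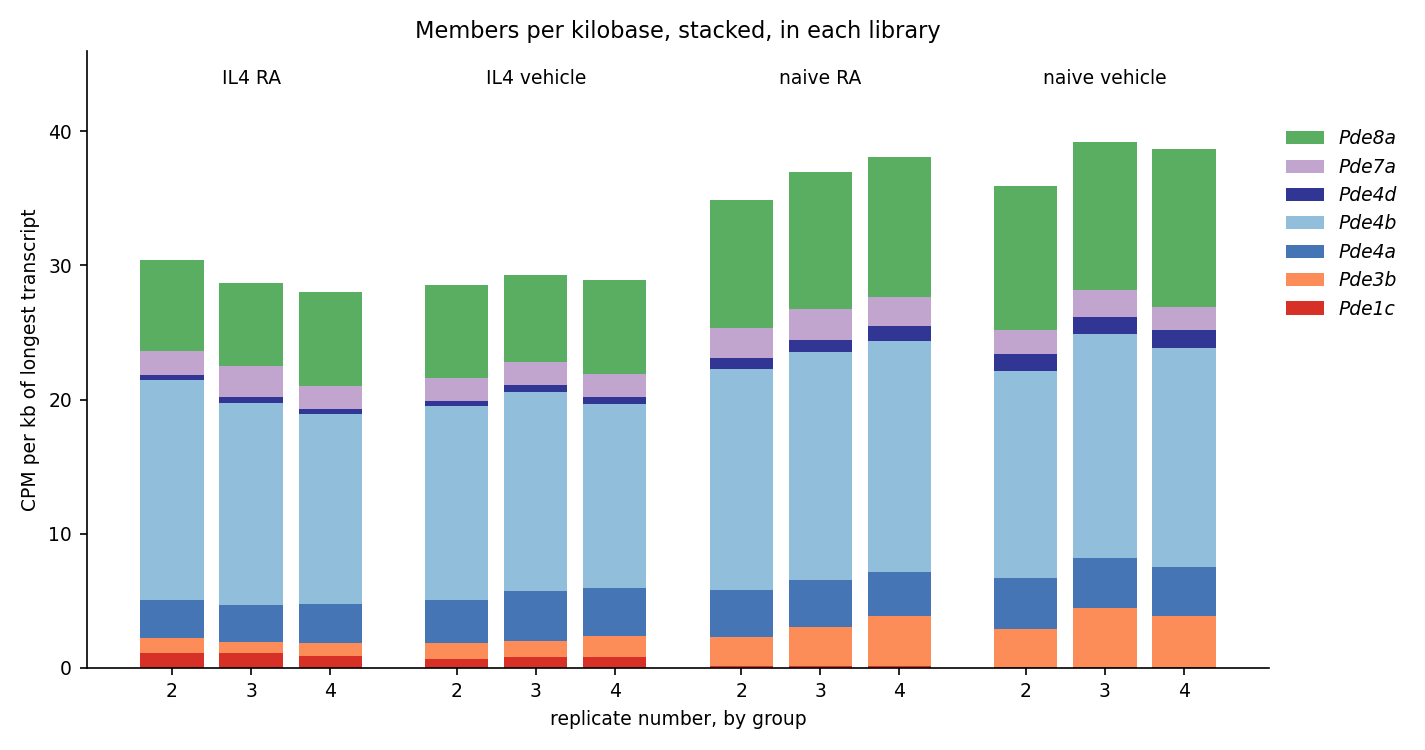
Level per kilobase of the longest transcript (vertical axis, CPM per kb) of the 7 genes, stacked, in each library of the 4 groups (horizontal axis, replicate number). Pde4b and Pde8a fill most of every bar, the naive bars are taller than the IL4 bars mainly by Pde8a and Pde3b, and Pde1c forms a clear band only in the IL4 libraries.

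Pde3b, Pde4d and Pde8a varied together over the 12 libraries, with Pearson r of 0.957 to 0.960 for each pair of log2 levels, and Pde1c varied against them (r of -0.92 with Pde3b and -0.95 with Pde4d and Pde8a). Pde7a had r of -0.16 to 0.53 with the others. The libraries fall into an IL4 and a naive cluster, so these values mostly restate the IL4 differences. Among 11189 genes, the levels most like Pde1c were those of Galm (r = 0.983), Socs2 (0.983), an inhibitor of cytokine signalling, and Chst11 (0.983). For Pde3b they were another phosphodiesterase gene, Pde7b (0.981), then Vamp7 (0.979) and Rnf144b (0.979). For Pde4d they were Nr4a1 (0.992), an orphan nuclear receptor gene that cAMP is known to induce, Calhm2 (0.991, a channel gene) and Fgf11 (0.986). For Pde8a they were Itgav (0.994), an integrin gene, Tnfrsf11a (0.992), which encodes the receptor RANK, and Nab1 (0.991). For Pde4a they were Nedd4l (0.936), Gcnt1 (0.926) and Mob4 (0.919), for Pde4b Akap8l (0.953), Acin1 (0.953) and Rufy3 (0.952), and for Pde7a Rab24 (0.923), Tor1a (0.897) and Ndufaf3 (0.876).

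Promoter windows of 300 bases (250 before and 50 after an annotated start, RefSeq GRCm38.p6) were found for 5 of the 7 genes, 12 windows in all, and were searched on both strands. The windows of Pde4d and Pde8a are shown because both genes were lower in every IL4 library and carry matches; a Pde1c window is shown because that gene differed most. Capitals mark in Pde4d a match to the STAT6 palindrome, TTC and GAA with any 4 bases between, and in Pde8a matches to TGACG, the short form of the cAMP response element, and AGGTCA, the core to which a single retinoic acid receptor binds. Pde1c has none. The windows lie at chr13:108653927-108654226 (plus strand), chr7:81213015-81213314 (plus strand) and chr6:56369585-56369884 (minus strand).
Pde4d: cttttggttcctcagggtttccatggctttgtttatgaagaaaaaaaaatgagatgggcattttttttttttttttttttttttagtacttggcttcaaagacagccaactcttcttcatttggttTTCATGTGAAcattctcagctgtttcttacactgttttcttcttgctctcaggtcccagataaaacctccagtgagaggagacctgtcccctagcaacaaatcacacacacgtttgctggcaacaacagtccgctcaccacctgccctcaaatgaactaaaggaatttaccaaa
Pde8a: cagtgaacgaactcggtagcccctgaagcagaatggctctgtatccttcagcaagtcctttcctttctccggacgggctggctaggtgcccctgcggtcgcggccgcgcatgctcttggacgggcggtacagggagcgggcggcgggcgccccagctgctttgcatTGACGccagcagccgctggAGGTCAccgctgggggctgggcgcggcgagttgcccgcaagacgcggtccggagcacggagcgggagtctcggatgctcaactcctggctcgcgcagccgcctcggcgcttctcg
Pde1c: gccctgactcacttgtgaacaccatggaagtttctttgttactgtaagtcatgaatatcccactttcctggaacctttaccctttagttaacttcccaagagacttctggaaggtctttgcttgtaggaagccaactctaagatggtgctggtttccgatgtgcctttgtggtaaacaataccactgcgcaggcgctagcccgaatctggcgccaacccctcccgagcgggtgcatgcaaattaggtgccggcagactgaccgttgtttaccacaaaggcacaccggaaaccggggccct
The Pde4d match begins 124 bases before the annotated start, and the Pde8a matches 84 and 65 bases before it. The palindrome occurred in 1 of the 12 windows and in 6.95% of the 32851 windows of all genes. TGACG occurred in 3 of 12 (Pde4a, Pde4b and Pde8a) and in 20.8% of all windows, and AGGTCA in 2 of 12 (Pde4b and Pde8a) and in 16.3%. The full cAMP response element TGACGTCA (1.79% of all windows) was in none of the 12, nor were direct repeats of AGGTCA with 1, 2 or 5 bases between (0.0396%, 0.00913% and 0.00913%). AGGTCA also lies within those repeats, and TGACG within the full element. A match is a run of letters and not a binding site, and the absence of a match concerns only these windows.

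The 6 other catalytic phosphodiesterase genes analysed, of 14 listed, include Pde2a, which rose with RA in both cell states. Pde2a, a cGMP-stimulated enzyme, measured 4.32, 4.31 and 4.30 log2 CPM in IL4 RA, 3.31, 3.40 and 3.18 in IL4 vehicle, 5.37, 5.13 and 5.16 in naive RA, and 4.45, 4.24 and 4.24 in naive vehicle. It rose with RA by 1.01 in IL4 cells (SE 0.08, adjusted p = 1.99e-06) and by 0.92 in naive cells (SE 0.08, adjusted p = 9.46e-06). It was lower with IL4 by 0.91 under RA (adjusted p = 4.07e-07) and 1.01 in vehicle (adjusted p = 1.33e-07), and its RA differences were not shown to differ between IL4 and naive cells (0.10, 95% interval -0.15 to 0.34). With the lowest value subtracted, the RA ratio of its CPM was 2.02 in IL4 cells and 1.89 in naive cells.

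Of the others, Pde8b, the relative of Pde8a, rose with IL4 by 1.35 under RA (adjusted p = 3.39e-06) and 1.68 in vehicle (adjusted p = 3.66e-07), the opposite direction to Pde8a. Pde7b, the relative of Pde7a, fell with IL4 by 0.92 under RA (adjusted p = 7.15e-07) and 0.75 in vehicle (adjusted p = 4.85e-06); its RA difference in IL4 cells, -0.23 (adjusted p = 0.101), was called with the replicate block (adjusted p = 0.0325). Pde1b, the relative of Pde1c and the highest of the 13 per kilobase in each group, fell with IL4 by 0.23 under RA (adjusted p = 0.00348) and 0.28 in vehicle (adjusted p = 0.000714). Pde5a, which encodes a cGMP-specific enzyme, and Pde10a had no difference past the threshold as fitted. The 4 Pde5a differences were -0.34 for RA in IL4 cells, -0.35 for RA in naive cells, 0.33 for IL4 under RA and 0.31 for IL4 in vehicle. They rest on few reads, an estimated 40.2 to 104.0 per library. Without the intensity trend all 4 were called (adjusted p = 0.0354, 0.0473, 0.00878 and 0.00978). For Pde10a the IL4 difference under RA, 0.59, was called with log2(CPM + 1), without the trend, in a fit of only the 2 groups, and without IL4 vehicle replicate 4 (adjusted p = 0.025 to 0.0483). Pde10a reached 1 CPM only in the IL4 RA libraries (1.03 to 1.24 CPM). It thus passed the filter only through the group where it was highest, and those calls are a description. Its libraries held an estimated 20.7 to 39.0 reads. In all, RA raised 1 and lowered 0 of the 6 in IL4 and in naive cells (median -0.16 and -0.06), and IL4 raised 1 and lowered 3 both under RA and in vehicle (median 0.05 and -0.17), with no interaction called. All these medians include Pde10a, so they are a description. For IL4 under RA the sign of the median rests on Pde10a: without it the middle value would be that of Pde1b, -0.23. For RA, of all tested genes 6.50% were higher and 5.18% lower in IL4 cells, and 3.24% and 3.03% in naive cells. For IL4, of all tested genes 29.0% were higher and 26.7% lower under RA, and 30.5% and 29.6% in vehicle. For the interaction, 0.338% of all tested genes were positive and 0.0413% negative.

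The wider pathway was read from lists of genes that make, receive or act on cyclic nucleotides. Of 6 tested cyclase genes (17 listed), none was called for RA, and 3 rose and 1 fell with IL4 under RA and in vehicle (median 0.34 and 0.32), where of all tested genes 29.0% were higher and 26.7% lower under RA, and 30.5% and 29.6% in vehicle. Adcy6, an adenylyl cyclase, rose by 3.12 under RA (adjusted p = 1.08e-09) and 2.91 in vehicle (adjusted p = 1.82e-09), and Gucy2g, a receptor guanylyl cyclase, by 2.40 and 2.67. Gucy2g, counted among the 3, reached 1 CPM only in IL4 libraries (means 1.19 CPM in IL4 RA and 1.45 CPM in IL4 vehicle). It thus passed the filter only through the groups where it was high, and its rise is a description. Its means of 0.229 CPM in naive RA and 0.237 CPM in naive vehicle lay near the table's lowest value. Adcy3 fell by 1.04 under RA and 1.13 in vehicle, while Adcy7 rose by 0.40 and 0.34. Of 14 tested genes for receptors that act on cAMP through G proteins and for G alpha subunits (22 listed), IL4 raised 7 and lowered 5 under RA and raised 6 and lowered 6 in vehicle (median 0.16 and 0.06), against the same 29.0% higher and 26.7% lower of all tested genes under RA and 30.5% and 29.6% in vehicle. The prostacyclin receptor gene Ptgir rose by 1.96 under RA and 2.03 in vehicle, the histamine receptor gene Hrh2 by 1.21 and 1.78 and the adenosine receptor gene Adora2a by 1.54 and 1.31, while the VIP receptor gene Vipr1 fell by 1.64 and 1.94. RA raised 4 and lowered 0 of the 14 in IL4 cells and raised 3 and lowered 1 in naive cells (median -0.01 and -0.03), where of all tested genes 6.50% were higher and 5.18% lower in IL4 cells, and 3.24% and 3.03% in naive cells. The prostaglandin E2 receptor gene Ptger2 rose by 0.48 in IL4 cells (adjusted p = 0.00123) and 0.60 in naive cells (adjusted p = 0.000318), and the adenosine receptor gene Adora2b fell by 0.68 in naive cells (adjusted p = 0.000264). The proton-sensing receptor gene Gpr65 rose with RA in both, by 0.38 in IL4 cells and 0.34 in naive cells, and Hrh2 by 0.54 in naive cells. The RA call of Hrh2 was lost without naive RA replicate 3 or 4 or naive vehicle replicate 2.

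Kinases, exchange factors and transcription factors that read the signal were described next. Of 10 tested effector genes (16 listed), IL4 raised 1 and lowered 6, both under RA and in vehicle (median -0.28 and -0.19). Over all tested genes, 29.0% were higher and 26.7% lower under RA, and 30.5% and 29.6% in vehicle. Rapgef3, which encodes the exchange factor Epac1, fell by 1.06 under RA and 1.36 in vehicle, the cGMP-dependent kinase gene Prkg1 by 0.72 and 0.85, the kinase A catalytic gene Prkacb by 0.44 and 0.49, and the kinase inhibitor gene Pkig by 0.53 and 0.27. With RA, for which 5.18% of all tested genes were lower in IL4 cells and 3.03% in naive cells, 1 of the 10 fell, the kinase A regulatory subunit gene Prkar2b, by 0.45 in IL4 cells (adjusted p = 3.24e-05) and 0.45 in naive cells (adjusted p = 4.75e-05). Of 10 tested A-kinase anchoring protein genes (16 listed), none was called for RA. IL4 raised 0 and lowered 3 under RA, and raised 0 and lowered 4 in vehicle (median -0.13 and -0.11). Akap10 was among those lowered, by 0.32 and 0.41. Of all tested genes 29.0% were higher and 26.7% lower under RA, and 30.5% and 29.6% in vehicle. Of 11 tested genes of the CREB family and its coactivators (11 listed), IL4 raised 1 and lowered 5 under RA (29.0% and 26.7% of all tested genes) and in vehicle (30.5% and 29.6%), with Sik1, a kinase that restrains the coactivators, lower by 0.97 both times, Crem by 0.83 and 0.75, and Crtc1 by 0.38 and 0.40. RA lowered 1 of the 11, against 5.18% of all tested genes in IL4 cells and 3.03% in naive cells: Creb1, by 0.24 in IL4 cells (adjusted p = 0.014) and 0.21 in naive cells (adjusted p = 0.0442). The Creb1 call in IL4 cells was lost without IL4 vehicle replicate 3 or 4, and that in naive cells without naive RA replicate 2 or 4, any 1 of the 3 naive vehicle libraries, IL4 RA replicate 3 or IL4 vehicle replicate 3.

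Of 11 tested genes known to be induced by cAMP (15 listed), RA raised 0 and lowered 3 in IL4 cells (median -0.36) and raised 0 and lowered 2 in naive cells (median -0.11), where of all tested genes 6.50% were higher and 5.18% lower in IL4 cells, and 3.24% and 3.03% in naive cells. The phosphatase gene Dusp1 fell by 0.75 in IL4 cells and 0.68 in naive cells, Fos by 0.56 and 0.50, and Rgs2 by 0.40 in IL4 cells. The Rgs2 call was lost without IL4 RA replicate 2 or 3 or IL4 vehicle replicate 3 or 4. IL4 raised 2 and lowered 7 under RA (median -0.70) and raised 3 and lowered 7 in vehicle (median -0.69), where of all tested genes 29.0% were higher and 26.7% lower under RA, and 30.5% and 29.6% in vehicle. The members of that list did not move as one with IL4: Nr4a3 rose by 4.18 under RA and 4.41 in vehicle, Thbs1 fell by 3.65 and 3.67, Nr4a1 by 2.16 and 2.30, and Il10 by 2.27 and 2.18. Il10, counted among the 7 lowered and in the medians, reached 1 CPM only in naive libraries (means 1.31 CPM in naive RA and 1.95 CPM in naive vehicle). It thus passed the filter only through the groups where it was high, and its fall is a description. Its IL4 means were low, 0.285 CPM in IL4 RA and 0.426 CPM in IL4 vehicle. No gene of any of these pathway lists was called for the interaction, where only 0.338% of all tested genes were positive and 0.0413% negative. These genes answer to other signals too, and cyclic nucleotide levels and enzyme activity were not analysed here.

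**Figure D5:**
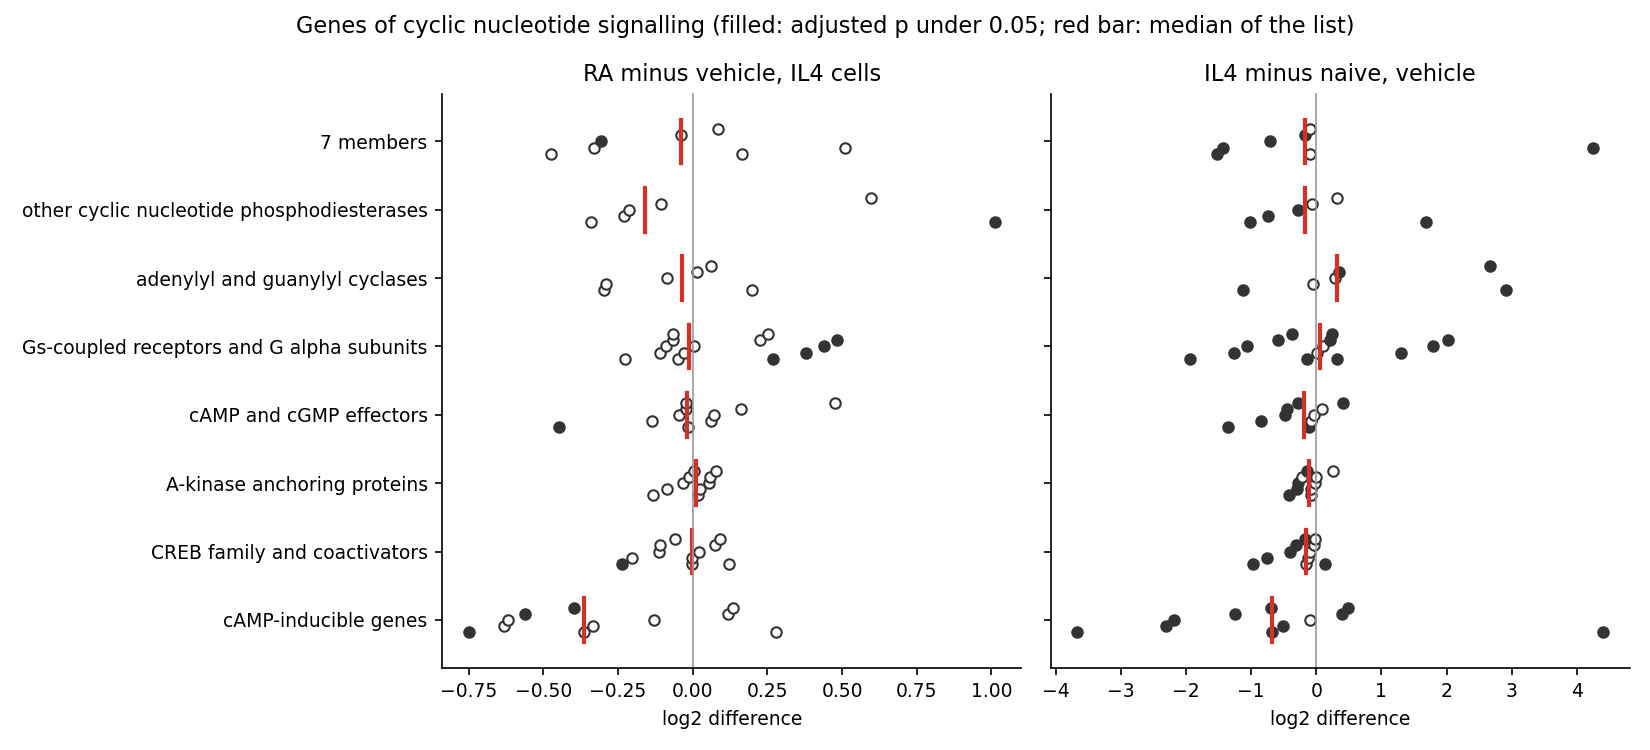
Log2 differences (horizontal axis) of the 7 genes and of the lists of cyclic nucleotide signalling (rows; 1 point per tested gene, red bar the median) for RA minus vehicle in IL4 cells (left) and IL4 minus naive in vehicle (right); filled points had adjusted p under 0.05. RA points lie between -0.75 (Dusp1) and 1.01 (Pde2a), and IL4 points between -3.67 (Thbs1) and 4.41 (Nr4a3).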

How the data were processed

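RNA of 12 macrophage libraries (TruSeq stranded poly(A) kit) was sequenced for 101 cycles from 1 end on 1 lane, per the labels' protocols. Per the submitters' processing notes the tools were bcl2fastq 2.20, Salmon 0.13.1 and edgeR 3.32.1 with build GRCm38. The authors deposited log2 CPM values scaled by TMM, with 1 shared lowest value of -3.67 (0.0783 CPM), and these were used as they are. Read counts were not analysed here, so depth is an estimate from value steps (5 to 19 genes per library).

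The filter asked for 1 CPM or more in 3 or more libraries, which left 12116 of 13553 genes and removed 1437. All 7 phosphodiesterase genes passed. A single model in limma 3.58.1 (R 4.3.3) gave each group a mean over all 12 libraries, with an intensity trend, 8 residual degrees of freedom and two-sided p-values adjusted by Benjamini-Hochberg over all tested genes within each of 5 contrasts. The model was tested on simulated data with independent normal noise and a small set of changed genes. That test does not cover libraries that deviate together or contrasts with many changed genes, and nothing is read from it. The 7 genes and the lists were chosen with earlier results of these data known. Named were all 7 genes, all other analysed catalytic phosphodiesterase genes, up to 3 called genes of largest change per list and contrast, and the 3 genes most correlated with each of the 7 (predicted genes left out); Adcy7 was named after its values were seen, and 1 gene that the rule names is not reported here.

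Same-numbered libraries deviated together between the IL4 groups (r = 0.245, 0.193 and 0.128) and the vehicle groups (0.14, 0.209 and 0.182). Between the naive groups (0.51, 0.277 and 0.0706) and the RA groups (0.0895, 0.186 and 0.126) 1 value was under 0.1. The numbers were thus taken to pair libraries within IL4 cells and within vehicle, from the data and not the labels. This rests on a chosen cut of 0.1, and the largest value, 0.51, was between the naive groups. The reported SEs, intervals and p-values come from the fit without pairing, unless an alternative is named. Alternatives were other filters, log2(CPM + 1), median centring, quantile normalization, no trend, robust moderation, library weights, only the 2 groups of a contrast, a replicate block, and leaving out each library. Positions and promoter sequences are from RefSeq (GRCm38.p6), transcript lengths from GENCODE vM21.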

Additional observations from a re-analysis of the deposited data

Results flagged for a closer look

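Pde1c is listed for its RA difference on the log2 scale, 0.51 in IL4 cells and 2.00 in naive cells, a difference of -1.49 (SE 0.28) that was past the threshold in the fit over all 12116 genes (adjusted p = 0.0368). Because the gene was selected on these values, that p is a description and no evidence of a difference, and the call held in 2 of 12 fits that each left out 1 library. The RA libraries were above the vehicle libraries in 3 of 3 in both states. Its naive vehicle level was an estimated 6.2 to 15.2 reads, and the difference of means in CPM ran the other way (2.71 in IL4 cells and 1.00 in naive cells). No group had 4 or more samples, so single libraries were not tested as outliers.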

How the results depend on the processing

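Of 763 values of the 7 genes under alternatives, 723 kept direction and side of the threshold, 20 lost a call, 8 gained one and 12 changed sign without being called; for the other phosphodiesterases it was 502, 0, 12 and 6 of 520, and for the named pathway genes 1467 of 1512, with 45 lost. The Pde1c interaction, the 1 interaction past the threshold among the 7, left 0 with a filter at 4 CPM, with log2(CPM + 1), with quantile normalization and without the intensity trend, and 0 to 1 when 1 library was left out. With RA in naive cells, library weights gave 4 of the 7 (Pde4d, Pde7a and Pde8a added), and leaving out 1 library 1 to 2. With RA in IL4 cells, log2(CPM + 1) and a fit of only the 2 groups gave 2 each (Pde1c added), and leaving out 1 library 1 to 2. Over all genes, library weights gave 1950 calls for RA in naive cells (759 as reported) and 103 interactions (46 as reported), and no trend gave 15 interactions. With 1 library left out the counts were 416 to 885 for RA in naive cells, 894 to 1498 for RA in IL4 cells (1416 as reported) and 17 to 67 interactions. Besides Pde5a and Pde10a, gained calls of the others were Pde7b for RA in IL4 cells and Pde1b for RA in naive cells, both with library weights. The replicate block gave 78 interactions over all genes, added Pde7b for RA in IL4 cells and changed no other call of the 13 phosphodiesterases or the named pathway genes. Differences near 0 that changed sign, none called, were the interaction of Pde4b (-0.0268 with library weights, -0.0382 to 0.0656 with 1 library left out), Pde3b (-0.316 to 0.0809) and Pde4d (-0.0225 to 0.192), RA in naive cells for Pde7b (-0.151 to 0.0281), Pde8b (-0.0097 to 0.232) and Pde10a (-0.144 to 0.0944), RA in IL4 cells for Pde8a (-0.0728 to 0.015) and IL4 in vehicle for Pde10a (-0.25 to 0.237). The cause was not tested. Median centring and quantile normalization moved the median of all genes by at most 0.06. Depth limits Pde1c in naive vehicle most, and Pde4d in IL4 cells.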
